A study of Mus musculus with 8 samples.

Results

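The genes of the AP-1 transcription factors are described here by the peaks that lie on and around them in newborn mouse epidermis. The members were 9 genes, Fos, Fosb, Fosl1, Fosl2, Jun, Junb, Jund, Atf3 and Batf, of 26180 genes with a curated RefSeq transcript. They were chosen by name together with a peak of these lists, the strong Rfx2 peak upstream of Fos, so peaks at and near these genes are given as a description and none was tested. All cells were total epidermis of wildtype mice at postnatal day 0.5; the back skin was treated with dispase, and the separated epidermis was trypsinized into a cell suspension before any chromatin was handled. MOF, the acetyltransferase that places H4K16 acetylation, was mapped by ChIPseq. Rfx2, a factor that binds the X-box of ciliary gene promoters, and the histone marks H3K4me3 (active promoters) and H3K27Ac (active promoters and enhancers) were mapped by Cut&Run. The series held 8 samples and 6 antibodies, of which 4 antibodies had a peak list that was used here, with 1 library per list. No group received a treatment and none carried a mutation, so nothing below compares conditions, and no spread between replicates could be computed. The labels name no sort of the cells. H3K4me3 lay at the promoters of 8 of 10 epidermal marker genes, 3 of 6 melanocyte, 3 of 6 dermal fibroblast, 1 of 4 endothelial and 0 of 5 immune marker genes. The part of other cell types in the peaks below was not tested.

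AP-1 is a dimer of basic leucine zipper proteins. Jun, Junb and Jund can pair with themselves or with a Fos protein, whereas Fos, Fosb, Fosl1 (FRA1) and Fosl2 (FRA2) need a partner of another family; Atf3 and Batf are relatives that join Jun proteins. In skin AP-1 acts in keratinocyte proliferation, terminal differentiation and wound repair. Fos, Fosb, Jun, Junb and Atf3 are immediate-early genes, transcribed within minutes of a growth factor, stress or injury without new protein synthesis. Their transcription is set off largely through serum response factor and cAMP-responsive factors bound close to the start site.

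Peaks were first counted at the promoter, taken as the 1 kb before and the 100 bp after the transcription start site (TSS). H3K4me3 lay at 7 of 9 members (exact 95% interval 40.0 to 97.2%), against 54.0% of all genes, and was missing from this window at Jund and Batf. H3K27Ac also lay at 7 of 9 members, against 44.1% of all genes, and was missing at Fos and Batf. From the RefSeq starts MOF reached into the window at Fos and Jun only, which is 2 of 9 members (exact 95% interval 2.81 to 60.0%) against 23.7% of all genes and 42% of the 14132 genes with H3K4me3 at the promoter. Rfx2 lay at the promoters of Fosb and Jun, again 2 of 9, against 1.21% of all genes and 2.24% of genes with H3K4me3 there. The counts depended on the window and the peaks kept. Within 1 kb on either side of the TSS, H3K4me3 lay at 9 members (56.0% of all genes) and MOF at 4 (25.6%), and within 2.5 kb MOF lay at 5 (27.8%) and Rfx2 at 4 (1.37%). With the centre of the peak in the promoter window, H3K4me3 fell to 2 members (25.5% of all genes) and MOF to 0 (14.7%), and with the top 50% of peaks H3K27Ac fell to 4 (36.7%). These intervals cover counting over 9 genes, not the error of a library.

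The MOF peaks at Fos and Jun lay over the gene bodies, with the called edge just downstream of the start site. Edges this near the TSS do not settle whether the start site itself was free of MOF, which was not tested. At Fos (chr12:85473890-85477274, plus strand), the MOF peak began 44 bp downstream of the TSS, ran for 4138 bp and covered 98.7% of the transcript. At Jun (chr4:95049036-95052222, minus strand), it began 28 bp downstream of the TSS, ran for 3985 bp and covered 99.1% of the transcript. Both peaks entered the promoter window only through its last bases. At Junb (chr8:84976909-84978748, minus strand), the peak began at 136 bp, was 2910 bp wide and covered 92.6%. At these 3 genes the peak went on past the annotated end of the transcript, by 797 bp at Fos, 826 bp at Jun and 1206 bp at Junb.

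Fosb and Jund carried the same kind of peak over part of the transcript. At Fosb (chr7:19302696-19310045, minus strand) it began 540 bp downstream of the TSS, was 2427 bp wide and covered 33.0% of the transcript. At Jund (chr8:70697739-70700616, plus strand) it began at 1492 bp, was 3667 bp wide and covered 48.2% of the transcript, then continued past its end across the annotated start of the neighbouring gene Iqcn. The other 4 members had no such peak. Fosl1 (chr19:5447698-5455938, plus strand), Fosl2 (chr5:32136472-32157840, plus strand) and Batf (chr12:85686720-85709087, plus strand) had no MOF peak over any base of their transcripts, and at Atf3 (chr1:191170296-191183333, minus strand), a stress-induced factor, a 906 bp peak touched only the last 2.69% of the transcript. The TSS base itself was under a MOF peak at 0 of 9 members (exact 95% interval 0 to 33.6%), against 19.3% of all genes.

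**Figure D1:**
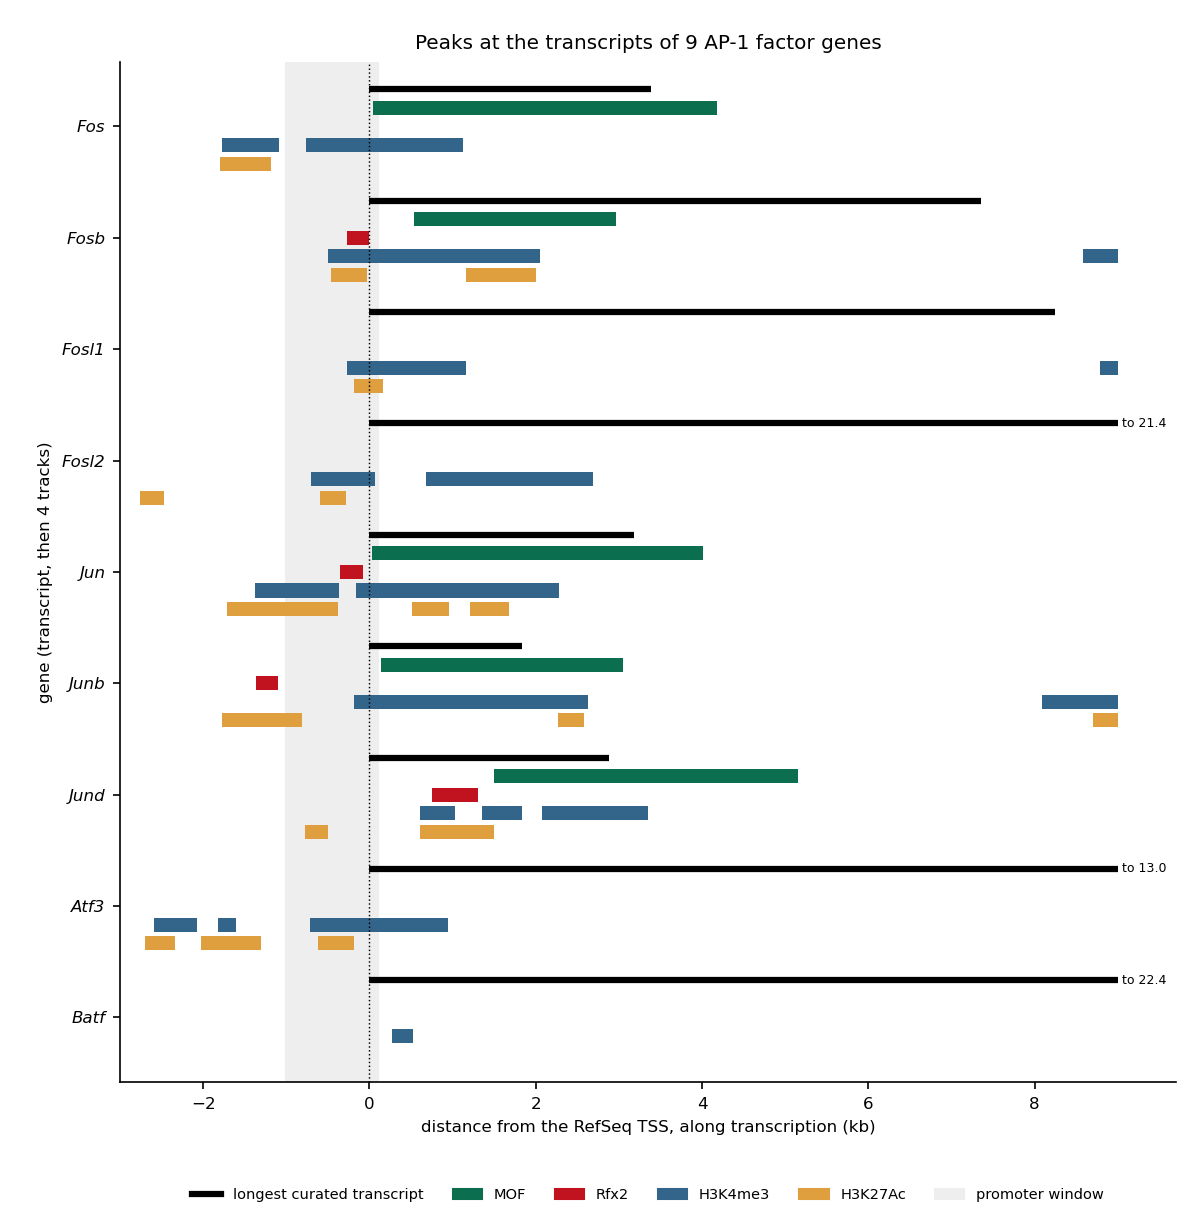
Peaks of the 4 lists from 3 kb upstream to 9 kb downstream of the TSS of each AP-1 factor gene, with distance along transcription on the horizontal axis, the longest curated transcript as a black bar and the promoter window shaded. The MOF peaks at Fos, Jun, Junb, Fosb and Jund start downstream of the TSS by 44, 28, 136, 540 and 1492 bp and fill 33.0 to 99.1% of the transcripts.

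Peaks of this width were rare in the MOF list. Of 17546 MOF peaks the median width was 562 bp, and the peak at Fos was the 20th widest, that at Jun the 23rd, that at Jund the 32nd, that at Junb the 80th and that at Fosb the 227th. The peak-calling mode and filter behind the deposited MOF list are not given in the sources used here. Peak widths, their ranks, edge positions, the call at the TSS base and the share of a transcript under MOF depend on them. The scores were less extreme. The score, whose scale the sources used here do not state, was 1217 at Fos, 2351 at Jun, 907 at Fosb, 804 at Jund and 642 at Junb, beside a median of 582 over the list, so the peak at Jun ranked 349th and that at Junb 7644th by score.

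MOF over at least 30% of the longest transcript was found at 5 of 9 members (exact 95% interval 21.2 to 86.3%) and at 463 of 26180 genes (1.77%). These members are short genes, and among the 11249 genes with a transcript under 10 kb the share was 4.09%. With the further condition that the TSS base lay outside the peak, the same 5 members remained, against 100 genes in all (0.382%) and 0.871% of genes under 10 kb. MOF over at least 90% of the transcript occurred at 3 members, Fos, Jun and Junb, against 0.569% of all genes, and with the TSS base outside at these same 3 against 14 genes in all (0.0535%). By comparison, a MOF peak that touched a transcript anywhere covered the TSS base at 5054 of 9071 genes (55.7%). This measure was added after the peaks had been seen, and transcript length sets how much of a gene a peak can fill. The part of length in the members' shares was not tested beyond the shares under 10 kb. The condition on the TSS base can turn on 1 bp, as at Zfp36, and no tolerance around it was tried.

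**Figure D2:**
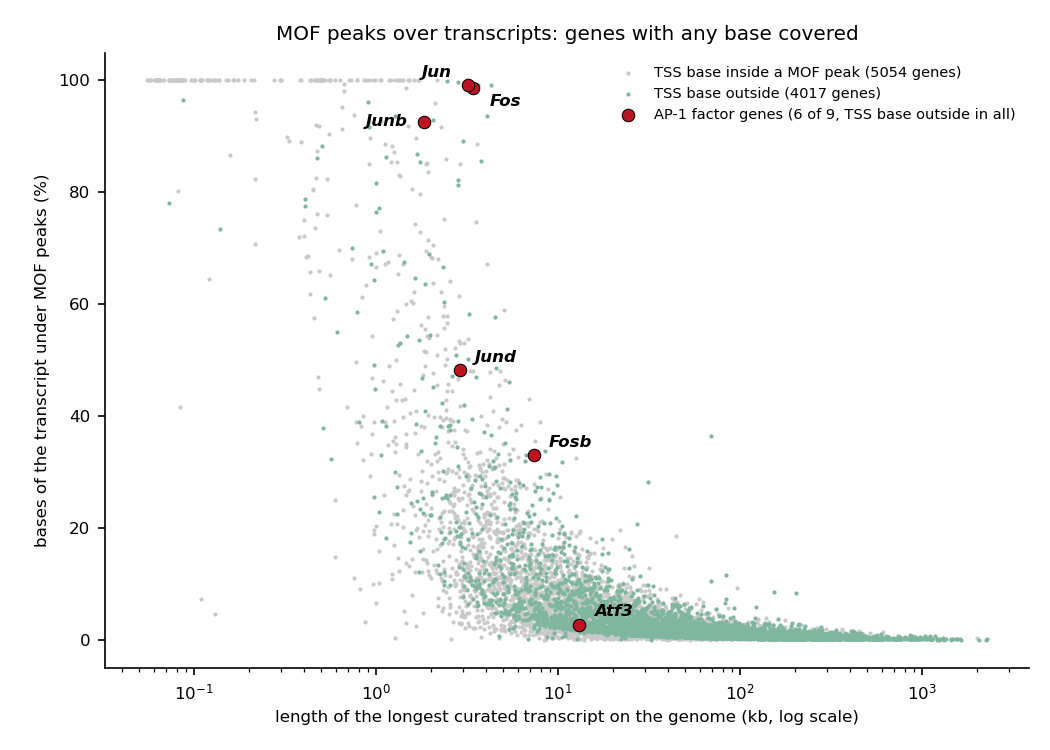
Each point is a gene with MOF over at least 1 base of its longest curated transcript, with transcript length in kb (log scale) across and the percentage of its bases under MOF peaks upward; grey points have the TSS base inside a MOF peak and green points outside. Fos, Jun and Junb lie between 92.6 and 99.1% at lengths of 3385, 3187 and 1840 bp, Jund at 48.2%, Fosb at 33.0% and Atf3 at 2.69%.

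Rfx2 peaks were few, 337 in all, and 8 of them (2.37%) lay within 50 kb of a member. Of 9 members, 6 had an Rfx2 peak within that distance (Fos, Fosb, Fosl1, Jun, Junb and Jund), against 4.35% of all genes; the Fos peak is part of the rule, and this count was not read as a result about the members. Fosl2, Atf3 and Batf had none, their nearest Rfx2 peaks lying 2940214, 214024 and 231212 bp away. The peak upstream of Fos (chr12:85455219-85455508) had its summit 18520 bp upstream of the TSS in intergenic sequence. Its fold enrichment over the local background was 25.4, the third highest of the list, and both H3K4me3 and H3K27Ac peaks overlapped it. No other curated gene starts within 50 kb of Fos, and the nearest other start, that of Tmed10, lay 80502 bp from this peak.

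At Jun the Rfx2 summit lay 242 bp upstream of the TSS (chr4:95052302-95052580), with a fold enrichment of 13.3, the 30th of 337. This peak sat in the gap between a pair of H3K4me3 peaks and overlapped the edge of the downstream one, and no H3K27Ac peak overlapped it. At Fosb the promoter peak (chr7:19310051-19310310) had its summit 148 bp upstream and a fold enrichment of 8.13, and another (chr7:19319870-19320295) lay 10084 bp upstream with 9.87; both overlapped H3K4me3 and H3K27Ac peaks. At Junb the peaks were 1269 bp (chr8:84979849-84980110, fold enrichment 6.64) and 7120 bp (chr8:84985697-84985911, 6.99) upstream, close to the list's median of 7.08. The Junb peak at 1269 bp lay just outside the promoter window. At Jund the summit was 843 bp downstream of the RefSeq TSS (chr8:70698497-70699044, 8.91), in the annotated 5′ UTR.

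The calls at Jund and Fosb rest on the annotation. At Fosb, GENCODE M21 has a further start 445 bp downstream, from which the MOF edge is at 95 bp and so inside the promoter window, which makes 3 members with MOF there. The same annotation starts Jund 1210 bp further downstream than RefSeq, which puts the Rfx2 peak, whose downstream edge is then at 95 bp, on the promoter. From that start H3K4me3 lay at the promoter too, and MOF began at 282 bp and covered 83.1% of the 1668 bp transcript. The peak nearest to Fosl1 (chr19:5489181-5489419, fold enrichment 7.64) was 41569 bp from it and only 802 bp from the start of Mus81, a DNA repair nuclease. It was the outermost peak inside the 50 kb limit, and the nearest one outside lay 79186 bp from Jund with a fold enrichment of 5.56.

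None of the 8 Rfx2 peaks near members overlapped a MOF peak (0 of 8, exact 95% interval 0 to 36.9%), against 54.3% of all Rfx2 peaks. H3K4me3 overlapped 7 of 8 and H3K27Ac 6 of 8, against 95.5 and 91.1% of all Rfx2 peaks. At Fos, Fosb, Jun, Junb and Jund the Rfx2 peaks lay upstream of the MOF peak over the gene, in the promoter window only at Fosb and Jun, and at Fos as far as 18382 bp from the TSS.

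The sequences under these peaks are shown because they differ in whether they hold an X-box, the paired site to which RFX proteins bind. Each is from mm10, reads 5′ to 3′ along the strand of the gene, and covers the whole peak at Fos and 100 bp on either side of the summit elsewhere. Capitals mark an X-box, its arm GTTGCC, or TGACG, the letters that open a cAMP response element, each on either strand (CGTCA and GGCAAC on the other). The X-box was spelled as the arms GTNRCC and RGYAAC, 0 to 3 bases apart. Here N is any base, R is A or G, and Y is C or T. The arm GTTGCC can lie inside an X-box, and TGACG can run into one.
Fos, peak 18520 bp upstream (chr12:85455219-85455508, plus strand): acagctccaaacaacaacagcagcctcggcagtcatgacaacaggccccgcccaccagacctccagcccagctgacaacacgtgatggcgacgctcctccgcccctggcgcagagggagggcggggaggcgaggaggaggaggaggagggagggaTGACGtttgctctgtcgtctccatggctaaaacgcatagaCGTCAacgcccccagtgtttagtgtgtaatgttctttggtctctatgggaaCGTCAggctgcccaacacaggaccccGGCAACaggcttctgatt
Fosb, 10084 bp upstream (chr7:19320029-19320229, minus strand): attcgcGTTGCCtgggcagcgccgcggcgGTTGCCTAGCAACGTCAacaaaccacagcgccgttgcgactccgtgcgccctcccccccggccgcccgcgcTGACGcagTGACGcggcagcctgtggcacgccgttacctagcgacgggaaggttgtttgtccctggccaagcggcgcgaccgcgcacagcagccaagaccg
Fosb, 148 bp upstream (chr7:19310093-19310293, minus strand): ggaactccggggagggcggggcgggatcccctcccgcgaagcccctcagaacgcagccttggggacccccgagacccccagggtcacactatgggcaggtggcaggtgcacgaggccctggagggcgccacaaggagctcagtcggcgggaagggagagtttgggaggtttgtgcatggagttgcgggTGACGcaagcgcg
Jun, 242 bp upstream (chr4:95052364-95052564, minus strand): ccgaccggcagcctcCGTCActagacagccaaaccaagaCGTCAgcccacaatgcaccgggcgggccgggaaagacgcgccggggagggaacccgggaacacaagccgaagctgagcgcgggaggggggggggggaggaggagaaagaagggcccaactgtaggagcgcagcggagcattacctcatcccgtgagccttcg
Junb, 1269 bp upstream (chr8:84979917-84980117, minus strand): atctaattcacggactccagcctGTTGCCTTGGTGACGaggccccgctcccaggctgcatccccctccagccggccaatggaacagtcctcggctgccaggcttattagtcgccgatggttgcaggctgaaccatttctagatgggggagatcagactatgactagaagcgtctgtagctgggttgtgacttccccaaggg
Junb, 7120 bp upstream (chr8:84985768-84985968, minus strand): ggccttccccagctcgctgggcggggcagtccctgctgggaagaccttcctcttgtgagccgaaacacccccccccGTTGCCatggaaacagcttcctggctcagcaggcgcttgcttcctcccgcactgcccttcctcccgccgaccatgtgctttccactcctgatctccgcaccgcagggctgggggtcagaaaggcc

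By this spelling, an X-box was present within 100 bp of the summit in the peak 10084 bp upstream of Fosb and in that 1269 bp upstream of Junb. In both, the X-box shares bases with a TGACG or its complement. That is 2 of 8 peaks, against 13.9% of all 337 Rfx2 peaks and 0.453% of the 26714 H3K4me3 peaks without Rfx2. The strongest, at Fos and Jun, held none there. The Junb window at 7120 bp held GTTGCCatggaaac, whose second arm differs from RGYAAC at 1 letter, and it was not counted. Looser spellings of the X-box were not tried. The Fos peak held 1 GGCAAC near its downstream edge, outside the summit window, and 3 copies of TGACG counted over both strands. These letters were found in 5 of the 8 windows, at Fos (3 copies), Fosb (3 and 1), Jun (2) and Junb (1), against 27% of all Rfx2 peaks and 15.2% of H3K4me3 peaks without Rfx2. GTTGCC was found in 3 of 8, against 30.3 and 7.73%. The AP-1 site TGANTCA was in 0 of 8 and in 3.26% of all Rfx2 peaks. Over the whole peaks, TGANTCA was in 1 of 8, the Junb peak at 7120 bp (4.15% of all Rfx2 peaks), and the X-box stayed at 2 of 8 (21.7%). The letters TGACG were then in 6 of 8 (37.4%), with 3 copies at Jund. The arm was in 5 of 8 (40.4%), Fos and Jund added. The X-box, its arm and the letters TGACG were chosen after these sequences had been read, so the shares describe the windows and no more.

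The promoter of Fos is shown because H3K4me3 covered it while the called MOF peak began downstream of the TSS. Its last 250 bases before the TSS (chr12:85473640-85473889, plus strand, RefSeq promoter of GRCm38.p6, which is mm10), with TGACG in capitals, read as follows.
Fos promoter: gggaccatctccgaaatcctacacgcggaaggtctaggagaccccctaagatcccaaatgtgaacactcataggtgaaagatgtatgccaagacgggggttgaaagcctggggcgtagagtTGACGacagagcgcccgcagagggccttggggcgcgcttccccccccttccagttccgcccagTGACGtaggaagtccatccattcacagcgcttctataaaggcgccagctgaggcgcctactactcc
The letters TGACG start 129 and 66 bp before the TSS. In the 300 bp promoters of the RefSeq table, which run from 250 bp before to 50 bp after the TSS and hold 8 of 9 members (all except Fosl1), TGACG was present at Fos, Fosb, Junb, Atf3 and Batf, which is 5 of 8 against 20.8% of 32851 promoters. In Fosb it starts 60 bp, in Junb 106 bp, in Batf 98 bp and in Atf3 7 bp before the TSS. No member promoter held TGANTCA (7.81% of all promoters) or a CArG box, the site of serum response factor (1.63%), in this window.

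The H3K4me3 peaks at the promoters of most members were broad but low. At Fos the peak was 1883 bp wide with a fold enrichment of 3.78, wider than 83.2% and higher than only 3.79% of the peaks at the 14132 promoters with H3K4me3. At Jun a peak of 2436 bp (fold enrichment 3.47) began 159 bp upstream of the TSS and another of 1011 bp (3.09) lay further upstream, and the higher fold exceeded that of 2.55% of such promoters. At Junb the peak was 2818 bp wide (wider than 98.7%) with 3.38 (higher than 2.26%), and it covered the whole transcript. Fosb had 2551 bp and 5.40, Atf3 1650 bp and 4.08, and Fosl2 774 bp and 2.45. Fosl1, which encodes FRA1, stood apart with 1439 bp and 10.8, higher than 82.8% of such promoters. The median fold enrichment over the 7 members was 3.78, beside 8.04 over all promoters with H3K4me3, and the median width 1883 bp beside 1319 bp.

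At Jund and Batf H3K4me3 began downstream of the promoter window. Jund had 3 peaks from 609 bp to 3348 bp downstream of the RefSeq TSS (fold enrichment 3.54, 3.78 and 4.34), and Batf 1 peak of 250 bp starting at 273 bp (3.61). Further into Batf, in introns, H3K4me3 peaks started at 11379 bp (19.6, the 68th highest of the list) and at 18691 bp (11.4). Batf, a partner of Jun proteins best known in lymphocytes, had no H3K27Ac, Rfx2 or MOF peak at its promoter.

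No H3K27Ac peak lay over the start of Fos. The nearest peak ended 1190 bp upstream of the TSS (604 bp wide, fold enrichment 4.61), and none overlapped the Fos transcript. At Jun and Junb too the promoter H3K27Ac peak lay upstream, ending 383 and 810 bp before the TSS. Unlike Fos, Jun also had H3K27Ac peaks inside the transcript, from 506 to 956 bp (2.77) and from 1204 to 1684 bp (4.03) downstream of the TSS. Junb had none over its transcript and one past its end, from 2269 to 2579 bp (2.47). By fold enrichment Fosb had the highest promoter peak, 7.20, followed by Fosl1 with 5.03, Jun with 3.91, Junb with 3.25, Fosl2 with 3.17, Atf3 with 2.97 and Jund with 2.74. Over the 7 members the median was 3.25, beside 6.72 at all promoters with H3K27Ac. Fold enrichment is measured against the read density around a peak, and the lists give no read counts, so low folds over wide peaks cannot be turned into amounts of a mark.

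**Figure D3:**
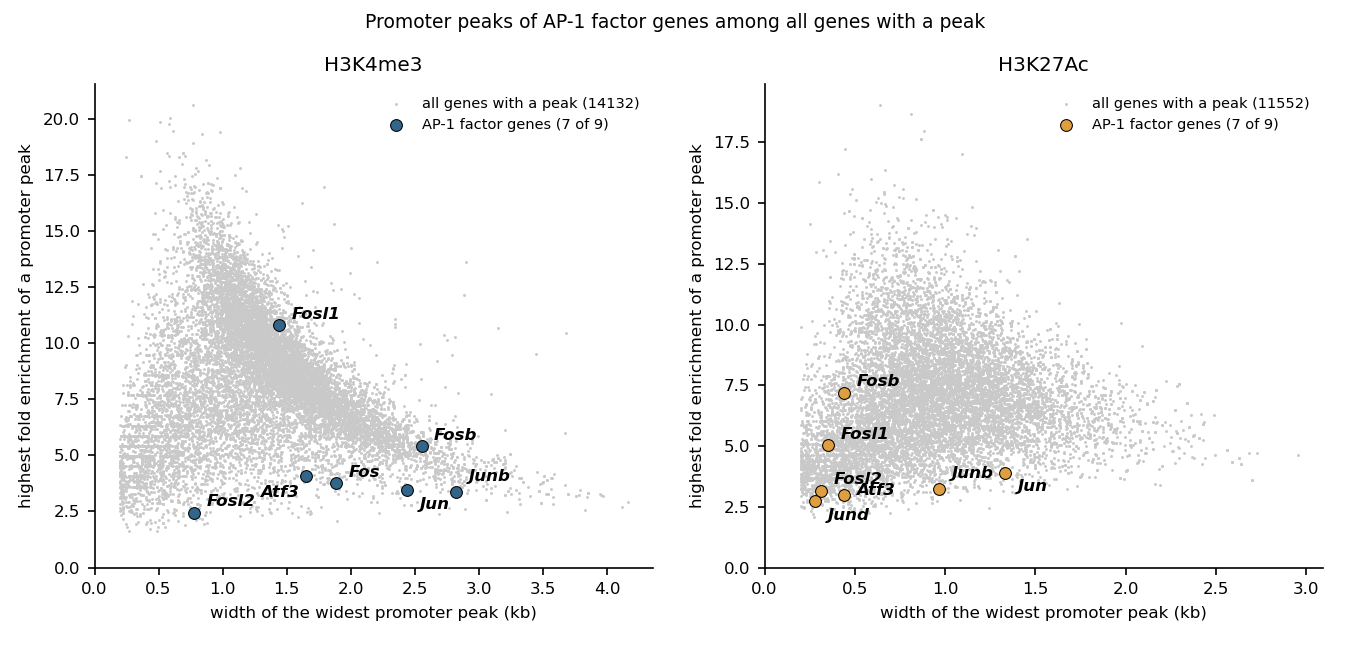
Each point is a gene with a promoter peak of H3K4me3 (left) or H3K27Ac (right); the width of its widest promoter peak in kb runs across and the highest fold enrichment of a promoter peak upward, with AP-1 factor genes in colour over all genes in grey. Fos, Jun, Junb and Atf3 had H3K4me3 peaks 1650 to 2818 bp wide at fold enrichments of 3.38 to 4.08, and Fosl1 a peak of 1439 bp at 10.8.

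Within 50 kb of their TSSs the members had 28 MOF, 8 Rfx2, 68 H3K4me3 and 73 H3K27Ac peaks. Every member had a MOF, an H3K4me3 and an H3K27Ac peak in that distance, as had 68.0, 78.0 and 71.7% of all genes. The median member had 8 H3K27Ac peaks. The median was 2 over all genes, 3 over genes with H3K4me3 at the promoter and 7 over the other immediate-early genes listed below. The highest counts among members were 12 at Fos and at Fosl1 and 11 at Fosb, and the lowest was 1 at Batf. For H3K4me3 the median was 7 beside 2, from 2 at Jun to 13 at Fosl1, and for MOF 3 beside 1, from 1 at Jun and Jund to 7 at Junb.

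Of the flanking peaks, 19 of 28 MOF, 2 of 8 Rfx2, 42 of 68 H3K4me3 and 33 of 73 H3K27Ac peaks lay nearer to another gene's start than to the member's. The 2 Rfx2 peaks were that by Mus81, near Fosl1, and that 7120 bp upstream of Junb. The latter lay 4096 bp from the start of Hook2 and 6949 bp from that of Junb. Which gene a peak serves was not tested. Fosl1 had 10 other genes starting within 50 kb, Junb 8, Fosb and Jund 5 each, and Atf3 and Fosl2 2 each, whereas Fos, Jun and Batf had none. The strongest flanking H3K27Ac peak lay on the start of Ercc1 near Fosb (fold enrichment 9.27), on that of Trir near Junb (7.27) and on that of Pgpep1 near Jund (6.44). Near Atf3 it lay on the start of D730003I15Rik (7.83), and near Fosl1 19 bp from that of Fibp (7.86). At Batf it lay in the gene's own intron (8.53), near Fosl2 in an intron of another gene (7.60), and near Fos (6.0) and Jun (5.80) in intergenic sequence.

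The MOF peaks around the members that lacked one over the gene were ordinary in size. Near Fosl1 they lay on the start of Fibp (594 bp wide, score 1144) and on that of Mus81 (604 bp, 559), both under H3K4me3 and H3K27Ac. Near Fosl2 there were 3, of 732, 1491 and 525 bp, and the widest, 15399 bp upstream at its outer edge, was under H3K4me3 and H3K27Ac. Near Atf3 the widest (1381 bp, score 1135) covered the start of the noncoding gene D730003I15Rik. The 3 near Batf, of 1031, 1213 and 374 bp, were all intergenic and on neither mark. Of all 28 flanking MOF peaks, 20 overlapped H3K4me3 (71.4%, beside 41.5% of the whole MOF list), 16 overlapped H3K27Ac (57.1%, beside 38.6%) and 8 overlapped neither. Around Fos the only other MOF peak, 324 bp wide, began 43459 bp downstream on neither mark, and around Jun and Jund the peak over the gene was the only one.

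**Figure D4:**
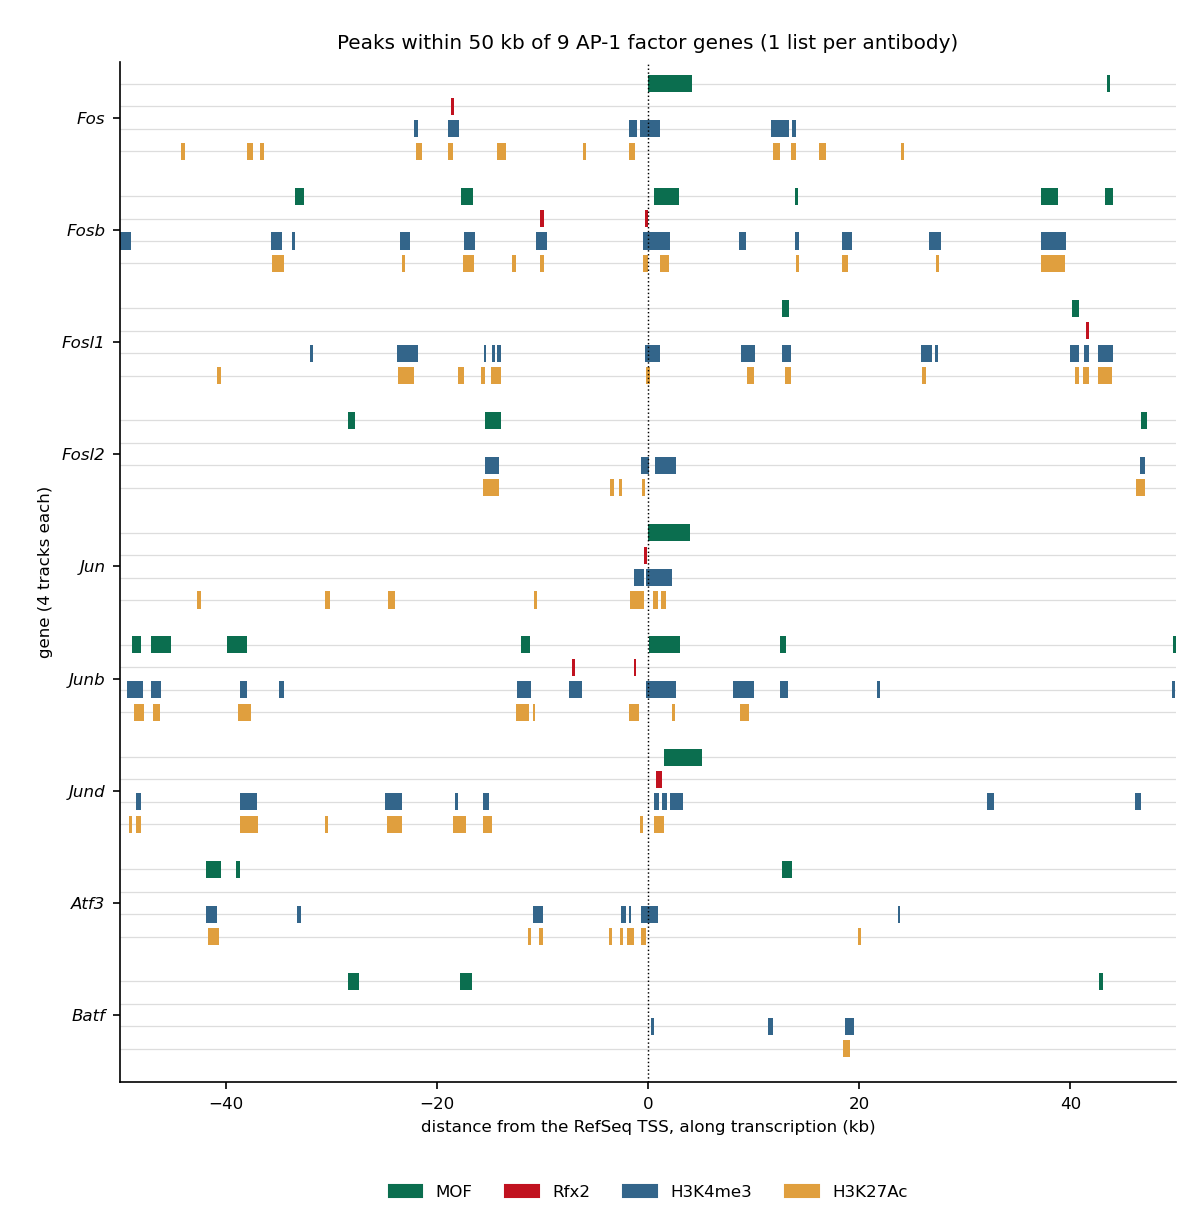
Peaks within 50 kb of the TSS of each AP-1 factor gene, with distance along transcription in kb across and 4 tracks per gene (MOF, Rfx2, H3K4me3, H3K27Ac); peaks under 0.25 kb are drawn 0.25 kb wide. Fos stands in a gene-free stretch with 12 H3K27Ac peaks on both sides and 1 Rfx2 peak, while Fosl1 has 13 H3K4me3 peaks and Batf 1 H3K27Ac peak.

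Distal H3K27Ac peaks, defined as those on no H3K4me3 peak and with no annotated TSS within 1 kb, were most numerous around Fos and Jun. Fos had 7, more than 99.5% of genes have, Jun 4, Atf3 3, Fosl2 and Jund 2 each, Fosb and Fosl1 1 each, and Junb and Batf 0. The median over members was 2, beside 0 over all genes, 0 over genes with H3K4me3 at the promoter and 2 over the other immediate-early genes. At Fos they reached from 44109 bp upstream to 24141 bp downstream of the TSS, the last being the highest at a fold enrichment of 6.0. At Jun, the 4 lay 10599, 24484, 30539 and 42672 bp upstream, the highest at 24484 bp with 5.80. Those of the other members were lower: 5.16 at Jund, 4.17 at Atf3, 3.67 at Fosl2, 3.51 at Fosb and 3.09 at Fosl1. None of the 20 overlapped a MOF peak, against 6.14% of all distal H3K27Ac peaks.

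**Figure D5:**
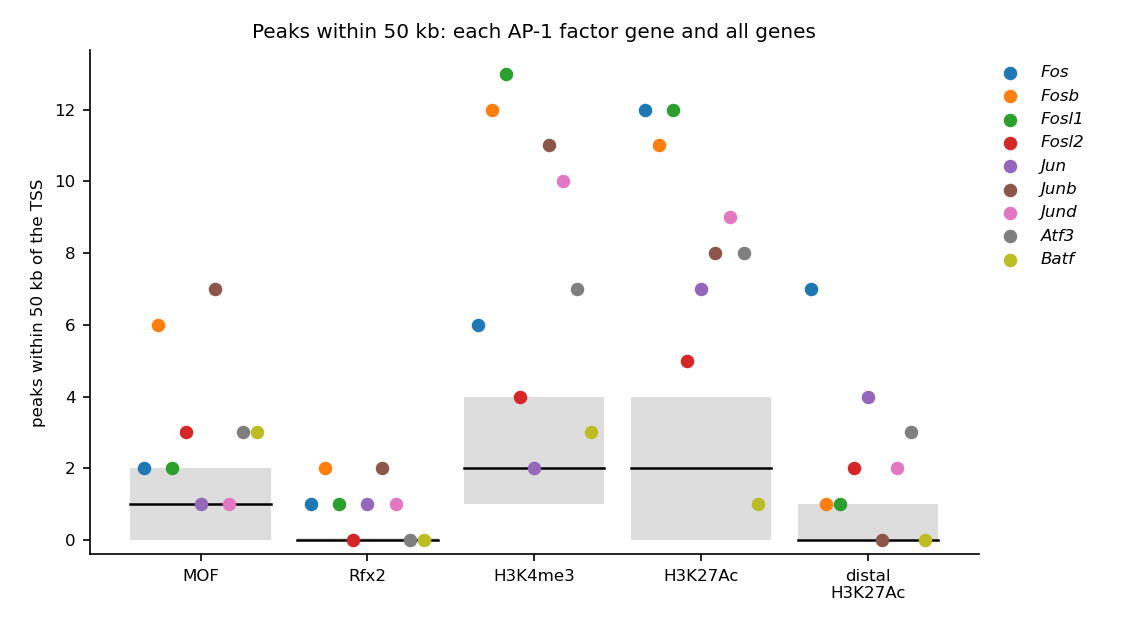
Number of peaks of each list, and of distal H3K27Ac peaks, within 50 kb of the TSS of each AP-1 factor gene (coloured points), with the median (line) and the interquartile range (grey box) over all 26180 genes. For H3K27Ac 8 of 9 members lie above the box, at 5 to 12 peaks, and Batf lies inside it at 1; for distal H3K27Ac Fos lies highest at 7.

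AP-1 proteins bind TGANTCA, and the distal peaks next to their own genes were searched for it. It occurred within 100 bp of the summit in 2 of 20 peaks (10%, exact 95% interval 1.23 to 31.7%), against 11.6% of all 12303 distal H3K27Ac peaks and 5.11% of the H3K27Ac peaks on H3K4me3. Within 250 bp of the summit, or anywhere in the peak, the share was 20% (5.73 to 43.7%), against 29.7 and 24.5% of all distal peaks. It was 18.2% of 44 peaks (8.19 to 32.7%) when distal was set by distance from a TSS alone, against 10.6% of all such peaks. The carriers lay 14241 bp upstream of Fos (fold enrichment 2.84) and 17615 bp upstream of Fosl1 (3.09), both among the lower H3K27Ac peaks of the list. Their sites are shown with 15 bases on either side, the site in capitals; both hold the same TGAGTCA.
Fos, peak 14241 bp upstream (chr12:85459631-85459667, plus strand): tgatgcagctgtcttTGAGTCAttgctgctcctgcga
Fosl1, peak 17615 bp upstream (chr19:5430035-5430071, plus strand): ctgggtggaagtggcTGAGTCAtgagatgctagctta

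The genes whose flanks were most like those of Fos, by the Euclidean distance between their percentile ranks for the length covered by each list within 50 kb and leaving out genes within 100 kb of Fos, were Hcn2 (distance 4.14), Zfp395 (4.21) and, tied, 5031425E22Rik and Kmt2e (4.25), which share a window. Around Fos, 4462 bp were covered by MOF, 290 bp by Rfx2, 5920 bp by H3K4me3 and 6086 bp by H3K27Ac. Hcn2, a channel gene, had 3872, 486, 6515 and 5638 bp. None of these is an AP-1 gene, and the likeness is over 4 covered lengths in 1 library each.

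Genes of related function were taken from 3 lists. Among 17 other immediate-early genes, with a median transcript of 3270 bp, MOF covered at least 30% of the transcript at 11. The TSS base was outside at 6 of these, and MOF covered at least 90% at 4. Ier2 and Ier3, named after their values had been seen, were covered over 100% of the transcript by MOF peaks that included the TSS. Zfp36, an mRNA decay factor, was covered over all of its transcript after the first base, Btg2, an antiproliferative gene, over 99.2% from 36 bp, and Dusp1, a MAP kinase phosphatase, over 85% by a peak that included the TSS. MOF was also at the promoters of 10 of the 17. Dusp1 was the only one of this list with Rfx2 at the promoter (fold enrichment 13.7), and the only one with Rfx2 within 50 kb. The H3K4me3 peaks at their promoters had a median width of 2203 bp and a median fold enrichment of 4.54, broad and low as at most members.

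Among 27 further basic leucine zipper factors, MOF lay at 15 promoters and covered at least 30% of the transcript at 3. These were Atf4 (55.7%), Cebpd (62.1%) and Atf5 (31.9%), of which Atf5 alone had the TSS base outside. The median transcript of these 27 genes was 11117 bp long, against 7350 bp for the members. Nfe2l1, a regulator of proteasome genes, was the only one with Rfx2 at the promoter (8.50) or within 50 kb. Among 21 genes that signal to AP-1, such as the MAP kinases, H3K4me3 lay at all 21 promoters and MOF at 5 (23.8%), and MOF covered 30% of 0 transcripts; the median transcript of this list was 57064 bp long against 7350 bp for the members. Rfx2 lay at none of these promoters, and Map2k7 and Srf, the latter encoding serum response factor, were among those with an Rfx2 peak within 50 kb. With 1 library per antibody, no difference between the lists and the members was tested.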

How the data were processed

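Reads were aligned by the authors to mm10 with Bowtie2 (very sensitive, local), and peaks were called with MACS2 library by library, for MOF from single-end reads without a fragment model and for Rfx2, H3K4me3 and H3K27Ac from paired-end fragments. The deposited Rfx2, H3K4me3 and H3K27Ac lists hold each peak's summit, its fold enrichment and its −log10 p-value and −log10 q-value. The deposited MOF list holds regions with a score of unstated scale, no summit and no fold, and is longer than the count of MOF peaks the study states, so the settings above may not be those that made it; its mode and filter are not given in the sources used here. The H3K4me3 and H3K27Ac lists belong to repeat libraries per the labels, though the file with the H3K4me3 peaks is not named as one. The lists hold no read counts; read totals per library are stated by the study and were not used here, so no precision by depth is given. A control library was not given in the sources used here.

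The members, the related gene lists and the motifs were chosen with earlier results of these data known. Gene starts were those of curated RefSeq transcripts of GRCm38.p6, the assembly behind mm10; 0 peaks ended beyond a chromosome. A peak counted when it overlapped a window by at least 1 bp. Distances run to the member's TSS, of which each member had 1. The share of a transcript under a list is over the genomic span of its longest curated transcript. Named were all members, all Rfx2 peaks near them, their promoter peaks and highest distal H3K27Ac peaks, and the 3 genes most like Fos with a tie. From each related list the genes with Rfx2 at the promoter and up to 3 others were named. Mus81, Tmed10, Iqcn, Ercc1 and Hook2 are among the other starts nearest to Rfx2 peaks. Those of Rtn2 and Mysm1, nearest to the promoter Rfx2 peaks of Fosb and Jun, were not named above. Fibp, D730003I15Rik, Trir and Pgpep1, near other peaks, and Ier2 and Ier3 fell outside this rule and were named after their values had been seen. Shares carry exact (Clopper-Pearson) 95% intervals, which cover counting error only. Heights were not compared between lists. Overlap code was checked against bedtools 2.31.1 on simulated intervals. Python 3.11.15, pandas 2.3.3, numpy 2.4.6, scipy 1.17.1, matplotlib 3.10.9 and samtools 1.23.1 were used. Other windows, distances, peak subsets, annotations and motif spellings were tried.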

Additional observations from a re-analysis of the deposited data

How the results depend on the processing

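Of 60 alternatives to 13 results, 39 left a count within 1.5 times its value, a share within its interval or a rank as it was. The GENCODE starts, all settings of the transcript measure, and the other settings for genes with Rfx2 within 50 kb were chosen after seeing the data. Members with MOF at the promoter went from 2 to 4 within 1 kb and 5 within 2.5 kb on either side of the TSS, and to 0 when the centre of the peak had to lie in the window. With the centre rule H3K4me3 promoters fell to 2, with the top 50% of peaks H3K27Ac promoters fell to 4, and within 2.5 kb Rfx2 promoters rose to 4. MOF over the transcript held at 3 members when 50% had to be covered. Flanking peaks scaled with distance: within 25 kb there were 13 MOF and 45 H3K4me3 peaks, and within 100 kb there were 48 MOF, 110 H3K4me3 and 127 H3K27Ac peaks. The top 50% of each list left 16 MOF, 37 H3K4me3 and 39 H3K27Ac peaks. The median of distal H3K27Ac peaks per member was 1 within 25 kb, 5 when only distance from a TSS defined distal, and 0 with the top 50% of peaks, of which 5 were distal and 0% held an AP-1 site. Under the other settings that share lay between 10% and 20%. The Rfx2 peak upstream of Fos ranked 4 by −log10 q and 109 by width. Members with Rfx2 within 50 kb stayed between 5 and 6. No paired analysis was possible because a single list stood for every antibody. Every value rests on 1 library, and the part of sequencing depth in an absent peak or a low fold enrichment was not tested.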

Other observations

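MOF over nearly the whole transcript with the TSS base outside the called peak was not particular to AP-1 and immediate-early genes. Whether a gene counted turned on the TSS base alone. The peak edge lay 1 bp downstream of it at Zfp36 and 10 bp at Hspa1b. Ier2 and Ier3, covered over 100% of the transcript, had it inside and were not counted. Beside Fos, Jun, Junb, Zfp36 and Btg2, the 14 genes with at least 90% of the transcript covered and the TSS base outside included Actb (99.2%, from 30 bp downstream of the TSS), which encodes cytoplasmic actin, the polyubiquitin gene Ubb (92.9%, from 145 bp), the inducible heat shock gene Hspa1b (99.6%, from 10 bp), Gpx1 (93.7%) and Imp3 (96.1%). Coverage was lower at Hspa1a (81.2%) and at the heat shock partner Dnajb1 (57.6%, from 74 bp); Hspa1a and Hspa1b are near-identical copies, between which reads cannot be assigned with certainty. These genes were named after their values had been seen.

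Of the 100 genes with MOF over at least 30% of the transcript and the TSS base outside, 13 had an Rfx2 peak within 50 kb, 5 of them the AP-1 factor genes, which were chosen in view of Rfx2 peaks. Without these, 8 of 95 genes (8.42%, exact 95% interval 3.71 to 15.9%) had one, Ubb, Hspa1a and Hspa1b among them, from 7 different peaks. The share was 5.51% (3.40 to 8.38%) of the 363 genes whose MOF peak covered as much of the transcript and the TSS base as well, and 4.35% of all genes. These intervals overlap, and the difference was not tested.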
